A study of Mus musculus with 16 samples.

Results

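The 52 genes described here encode proteins of G2 and mitosis, the last phases of the cell cycle. They were named as a list of gene symbols, and 52 of 52 were found by symbol among the 46078 genes of the count table. All 52 were among the 13661 genes that passed the filter on low counts and were tested. In G2 a cell has copied its DNA and builds up cyclin B with the kinase CDK1, and this pair starts mitosis. The aurora and polo-like kinases, the spindle checkpoint, the kinesins and the condensins then align and part the chromosomes, and cytokinesis splits the cell. HSCs, the hematopoietic stem cells that supply all blood cells, are mostly out of cycle in an undisturbed adult mouse and enter cycle after transplantation into an irradiated host, so that these genes are commonly read as a sign of division.

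RNA was taken from HSCs of wild-type B6.SJL mice in steady state (SS), which received no treatment, and from HSCs sorted 4 weeks after 8000 LSK cells (lineage-, Sca1+, Kit+ marrow cells) were transplanted into recipients irradiated with 900 cGy. HSCs were gated as LSK cells that were CD48- and CD150+, and then split by surface MAC-1, an integrin of myeloid cells whose alpha chain is encoded by Itgam. This gave SS MAC-1- (n = 3), SS MAC-1low (n = 3), 4 week MAC-1- (n = 3), 4 week MAC-1low (n = 4) and 4 week MAC-1+ (n = 3) HSCs. No source says whether the samples of a population came from separate mice or from 1 pool, so p-values measure the spread between these 16 samples, and each comparison of SS with 4 weeks holds the irradiated host, the transplanted graft and the time together.

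The samples held 13781278 to 28580658 counts, and levels are given as CPM, counts scaled to the size of each library with TMM factors. A count of 0 allows up to 3 counts, which is 0.112 to 0.220 CPM here, and covers counting error only. Itgam ranged from 0 to 0.262 CPM in SS MAC-1-, from 0.773 to 1.57 in SS MAC-1low, from 0 to 1.78 in 4 week MAC-1-, from 0.112 to 4.36 in 4 week MAC-1low and from 3.80 to 30.02 CPM in 4 week MAC-1+ HSCs. Its samples followed the sort without overlap in SS. At 4 weeks the MAC-1+ samples lay above all MAC-1- samples, while the MAC-1low samples overlapped both. The 8 HSC markers checked summed to 1521 to 1991 CPM in SS and to 691 to 3457 CPM at 4 weeks, and none was at 0 in every sample of a population. SS MAC-1- replicate 3 had the most genes detected, 17576 against 14533 to 16675 in the other samples.

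Many mitotic genes carry 2 short promoter motifs that the literature ties to their timing, the CHR element and the CCAAT box. The CHR is bound by the complexes that silence these genes in resting cells and drive them in G2, and CCAAT is bound by NF-Y. RefSeq promoter windows of GRCm38.p6, from 250 bases before to 50 bases after the transcript start, were matched for 43 of the 52 genes (47 windows). Either TTTGAA or TTTAAA, the letters searched for the CHR on both strands, stood in 41 of these windows, or 87.2%, against 27.6% of all 32851 windows. CCAAT, also on both strands, stood in 40 windows, or 85.1%, against 37.4% of all, and both motifs stood in 37 windows, or 78.7%, against 10.7%. A match is a run of letters and no proof of a bound site. In 60 windows of other G2 and mitosis genes the shares were lower than in the 52, at 41.7% for the CHR letters and 53.3% for CCAAT, and 15 windows held both. In 26 windows of S phase genes they were 26.9% and 65.4%, and 5 windows held both. The stretches below were chosen to show both motifs, CCAAT alone and the promoters of genes whose levels are set out further on. Capitals mark matches of these motifs on either strand, and no match overlaps another. Each stretch holds 150 bases, read 5′ to 3′ on the strand of the gene and ending before the first annotated exon. Cks2 lies on the plus strand at chr13:51645082-51645231, and the other genes lie on the minus strand, Ccnb2 at chr9:70421555-70421704, Cdk1 at chr10:69352939-69353088, Cdc20 at chr4:118437353-118437502 and Kif23 at chr9:61946800-61946949.
Cks2: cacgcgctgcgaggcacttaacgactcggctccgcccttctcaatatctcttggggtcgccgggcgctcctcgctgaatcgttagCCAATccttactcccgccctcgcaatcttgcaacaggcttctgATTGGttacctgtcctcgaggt
Ccnb2: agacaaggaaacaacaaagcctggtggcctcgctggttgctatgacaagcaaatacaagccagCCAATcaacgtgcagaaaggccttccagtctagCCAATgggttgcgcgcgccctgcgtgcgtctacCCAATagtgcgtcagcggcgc
Cdk1: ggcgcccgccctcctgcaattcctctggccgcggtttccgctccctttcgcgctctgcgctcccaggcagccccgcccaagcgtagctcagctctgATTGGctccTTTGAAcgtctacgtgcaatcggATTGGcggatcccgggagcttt
Cdc20: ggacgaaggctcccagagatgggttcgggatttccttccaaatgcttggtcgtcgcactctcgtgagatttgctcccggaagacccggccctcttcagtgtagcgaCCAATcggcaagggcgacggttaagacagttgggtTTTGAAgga
Kif23: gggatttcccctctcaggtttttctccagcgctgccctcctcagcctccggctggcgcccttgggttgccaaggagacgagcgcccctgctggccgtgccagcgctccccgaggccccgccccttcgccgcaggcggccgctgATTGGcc
Cdk1 and Cdc20 show both motifs in these stretches, while Cks2, Ccnb2 and Kif23 show CCAAT alone. In their whole windows Ccnb2 and Kif23 also hold the CHR letters, and Cks2 does not.

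As a whole, the 52 genes had their lowest sum in the SS MAC-1- population, higher sums in SS MAC-1low HSCs and in the MAC-1- and MAC-1low classes at 4 weeks, and a low sum again in the MAC-1+ class. Summed over the 52 genes, SS MAC-1- samples held 4286, 3600 and 3697 CPM, and SS MAC-1low samples held 4793, 7257 and 5758 CPM. At 4 weeks the sums were 6761, 6252 and 6723 CPM in MAC-1-, 5221, 6636, 6017 and 6106 CPM in MAC-1low and 4718, 4385 and 4126 CPM in MAC-1+ HSCs. The SS MAC-1- samples lay below all SS MAC-1low samples, and the 4 week MAC-1+ samples lay below all other 4 week samples, while the MAC-1- and MAC-1low samples at 4 weeks overlapped. In bulk RNA, fewer cells in G2 or mitosis and less of these transcripts per cell cannot be told apart. The sum leans on a few abundant genes, so the genes were also counted singly: 28 of 52 had their lowest mean in the SS MAC-1- class and 16 in the 4 week MAC-1+ class, and 22 had their highest mean in 4 week MAC-1- HSCs and 16 in SS MAC-1low HSCs.

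**Figure D1:**
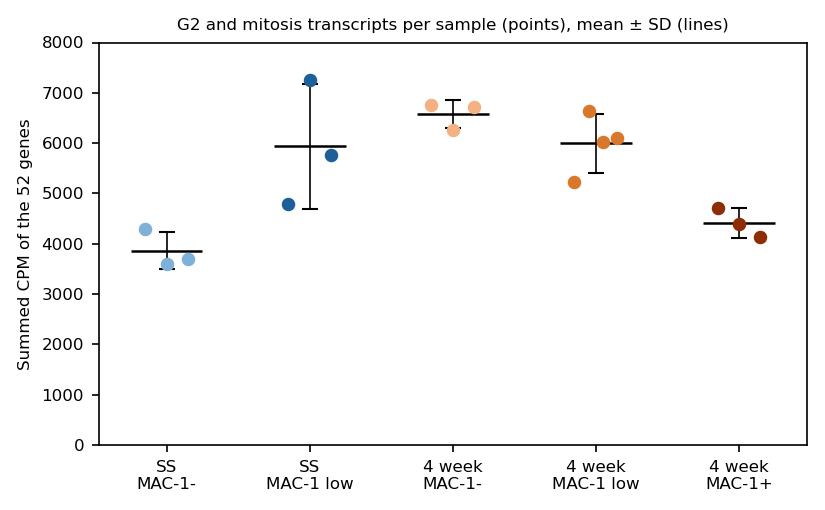
Summed CPM of the 52 genes (vertical axis) in the 5 populations (horizontal axis). Points are samples and lines are the mean ± SD. The 3 SS MAC-1- samples (3600 to 4286) lie under every SS MAC-1low sample, and the 3 MAC-1+ samples (4126 to 4718) under every other 4 week sample.

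Genes listed as markers of other cell types also differed between some populations. Some of them were present in SS HSCs too, where Pf4 held 251 to 964 CPM. The 8 megakaryocyte markers summed to 4274 to 6753 CPM in 4 week MAC-1- HSCs against 157 to 1109 CPM in the other populations, and the HSC markers were lowest there, at 691 to 890 CPM. Pf4 held most of that megakaryocyte sum, at 3776 to 6366 CPM in 4 week MAC-1- HSCs. Itga2b, Gp9, Ppbp and Vwf were also above all other samples there, while Gp1ba overlapped. Gp1bb, a platelet receptor chain, was at 98.2 to 139.6 CPM in those samples, at 0 in all 3 MAC-1+ samples and at 0 to 65.3 CPM elsewhere, and Gp6, another such chain, was under the floor in every sample. Cd48, whose protein the gate removes, was at 71.7 to 133 CPM in 4 week MAC-1- and at 60.3 to 107 CPM in 4 week MAC-1low HSCs, against 0 to 45.4 CPM elsewhere. The 10 erythroblast markers summed to 79.5 to 189 CPM in 4 week MAC-1+ HSCs, with Alas2 and Slc4a1 at 0, against 11.96 to 75.4 CPM elsewhere. The 8 T and NK cell markers summed to 16 to 176 CPM in 4 week MAC-1+ HSCs, to 323 to 644 CPM in 4 week MAC-1- HSCs and to 164 to 380.1 CPM elsewhere, with Cd3e and Cd3g at 0 in every 4 week sample. Nearly all of this sum was 1 gene, Nkg7, at 16 to 176 CPM in 4 week MAC-1+ and 323 to 642 CPM in 4 week MAC-1- HSCs. Over all samples the sums were 0.0524 to 125 CPM for 8 monocyte and macrophage and 7.27 to 170.1 CPM for 8 B cell markers. Cd79b held most of the B cell sum in each sample. The 10 neutrophil and promyelocyte markers summed to 257, 1137 and 7743 CPM in 4 week MAC-1+ replicates 1, 2 and 3, and to 89.8 to 395 CPM elsewhere. Replicate 1 thus lay within the range of the other populations. Replicate 3 held 3911 CPM of S100a8, and 197 of Elane, 160 of Mpo and 88.01 of Ctsg, which were at 0 in replicates 1 and 2. In the MAC-1+ against MAC-1- comparison at 4 weeks, edgeR called 5 of 8 tested HSC, 3 of 7 neutrophil and 1 of 6 erythroblast markers higher, and 3 of 7 megakaryocyte and 1 of 3 T and NK markers lower. In SS the megakaryocyte sum was 619 to 1109 CPM in MAC-1- and 322 to 674 CPM in MAC-1low HSCs, and Cd48 ranged from 0 to 25.5 and from 0 to 42.2 CPM. Whether these marker transcripts came from the HSCs or from other cells was not tested, nor was their part in the levels of the mitotic genes.

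**Figure D2:**
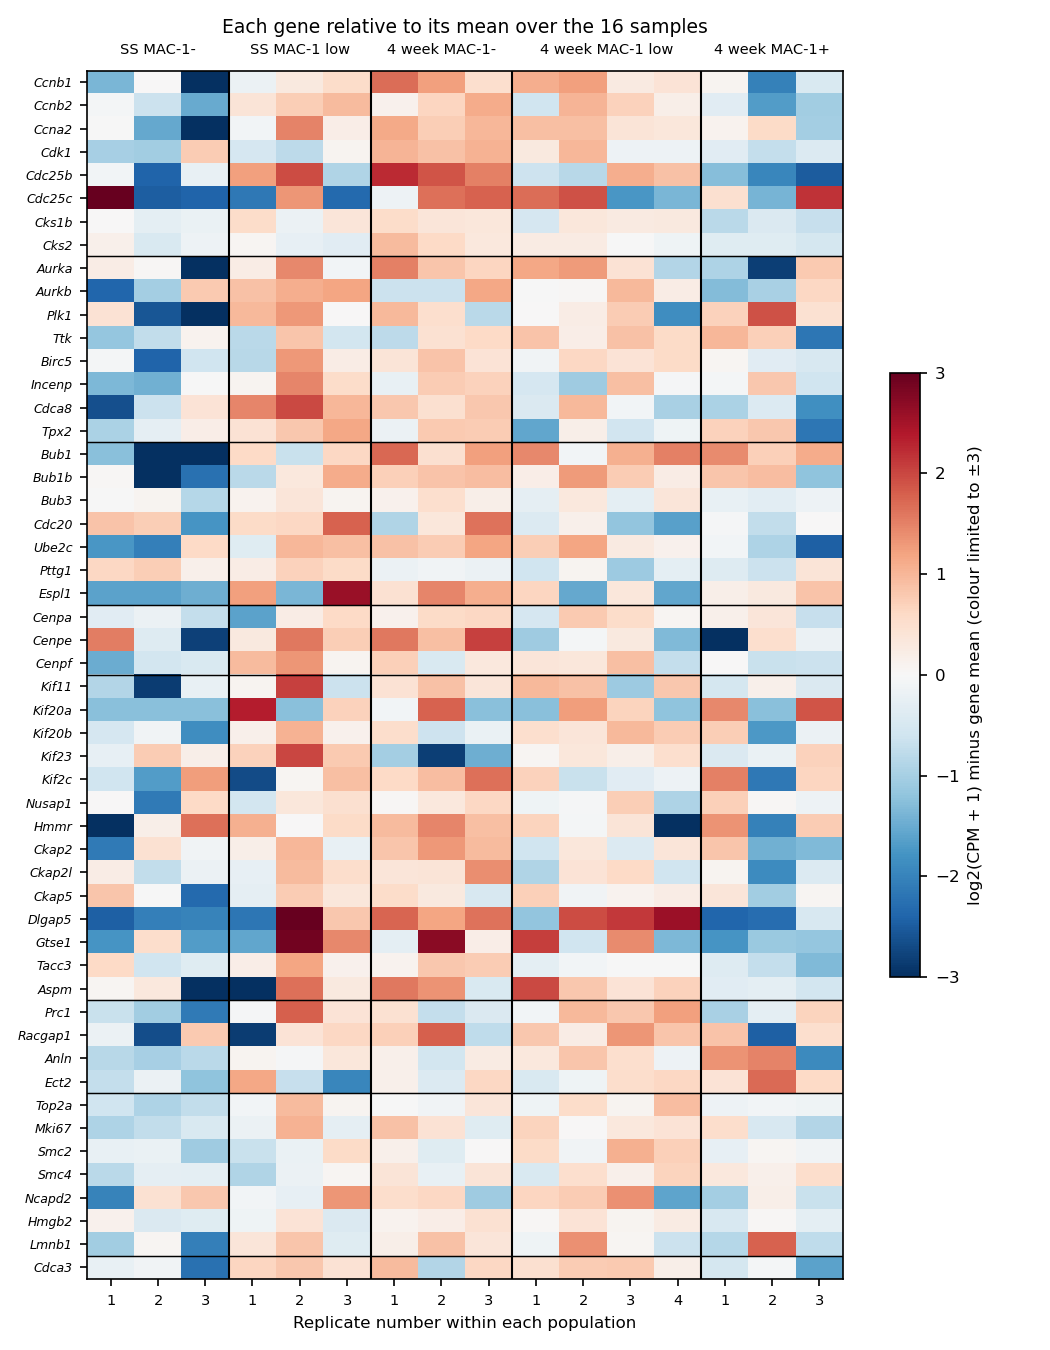
Heat map of the 52 genes (rows, grouped by role between lines) in the 16 samples (columns, by population). Colour is log2(CPM + 1) minus the mean of the gene over all samples, limited to 3 either way. SS MAC-1- samples are blue in most rows, SS MAC-1low replicate 2 is red in most rows, and Kif23 is blue in the 3 samples of 4 week MAC-1-.

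Among the cyclins, CDK1 and their partners, 2 genes passed the test, both lower at 4 weeks in the MAC-1+ class than in the MAC-1- class. They are Cks1b and Cks2, small proteins that bind cyclin-dependent kinases and help them reach their substrates. Per kilobase of exon they also had the highest mean levels of the 52 genes, 453 CPM per kb for Cks1b and 370.2 for Cks2, and the lowest was 0.401 for Espl1. Values are given in the order of the replicate numbers. For Cks1b, the SS samples held 493, 402 and 428 CPM in MAC-1- and 717, 436 and 629 CPM in MAC-1low HSCs. Cks1b at 4 weeks reached 715, 628 and 619 CPM in MAC-1-, 346, 620.1, 594 and 599 CPM in MAC-1low and 279, 363 and 302 CPM in MAC-1+ HSCs. Its MAC-1+ samples lay below all MAC-1- samples, MAC-1low replicate 1 stood apart from the other MAC-1low samples at a level within the MAC-1+ range, and both SS populations overlapped. For Cks2, the SS samples held 275, 179 and 222 CPM in MAC-1- and 257, 208 and 195 CPM in MAC-1low HSCs. Cks2 at 4 weeks reached 474, 372 and 309 CPM in MAC-1-, 292, 293, 246 and 225 CPM in MAC-1low and 191, 191 and 169.9 CPM in MAC-1+ HSCs. Its levels fell from MAC-1- over MAC-1low to MAC-1+ with no overlap at either step, and the SS populations overlapped. From MAC-1- to MAC-1+ at 4 weeks the log2 fold change was -1.06 ± 0.23 (SE) for Cks1b, with an adjusted p of 0.0245 by edgeR. Cks2 changed by -1.07 ± 0.22 (SE) on the log2 scale, with an adjusted p of 0.018. In this comparison 2.06% of all tested genes were called lower and 1.19% higher, 3.25% in all. Neither call held without 4 week MAC-1- replicate 1, where the adjusted p were 0.102 for Cks1b and 0.100068 for Cks2, and the call for Cks1b was also lost without 4 week MAC-1+ replicate 3, at 0.122. Without the filter on low counts, and with the compared groups fitted alone, Cks2 had adjusted p of 0.116 and 0.113. A pseudogene, Gm15452, is identical to Cks2 over 240 bases and held 502 counts in all against 79690 for Cks2.

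Ccnb1 and Ccnb2 had their lowest means in the SS MAC-1- and 4 week MAC-1+ populations, and Ccna2 had its lowest mean in the first of these. Ccnb1 encodes cyclin B1, which switches on CDK1 at entry into mitosis. For Ccnb1, the SS samples held 25.6, 68.5 and 5.95 CPM in MAC-1- and 59.5, 83.5 and 99.2 CPM in MAC-1low HSCs. Ccnb1 at 4 weeks reached 219, 160.2 and 96.7 CPM in MAC-1-, 145, 161, 81.4 and 90.01 CPM in MAC-1low and 72.3, 15.95 and 48.97 CPM in MAC-1+ HSCs. The 4 week MAC-1+ samples lay below all other 4 week samples, the 4 week MAC-1- samples above all SS MAC-1- samples, and the SS populations overlapped. Ccnb2, the gene of cyclin B2, has 3 CCAAT matches in the stretch shown above. For Ccnb2, the SS samples held 130.5, 85.2 and 46.4 CPM in MAC-1- and 176, 226 and 261 CPM in MAC-1low HSCs. Ccnb2 at 4 weeks reached 147, 212 and 294 CPM in MAC-1-, 88.6, 276, 217 and 153 CPM in MAC-1low and 107, 41.6 and 65.4 CPM in MAC-1+ HSCs. The SS MAC-1low samples were above all SS MAC-1- samples, and the MAC-1+ samples below all 4 week MAC-1- samples, with the 4 week MAC-1low samples spread across that range. Ccna2 encodes cyclin A2, which acts in S phase and G2. For Ccna2, the SS samples held 57.9, 19.4 and 0.718 CPM in MAC-1- and 54.4, 163 and 66.3 CPM in MAC-1low HSCs. Ccna2 at 4 weeks reached 128, 96.5 and 117 CPM in MAC-1-, 109, 108, 75.8 and 73.2 CPM in MAC-1low and 62.8, 86.99 and 27.9 CPM in MAC-1+ HSCs. SS MAC-1- replicate 3 was almost without it, and the other SS samples overlapped between the classes. Cdk1 is the kinase the B cyclins activate. For Cdk1, the SS samples held 49.4, 48.3 and 169.7 CPM in MAC-1- and 70.6, 57.9 and 106 CPM in MAC-1low HSCs. Cdk1 at 4 weeks reached 204, 185 and 208 CPM in MAC-1-, 124, 202, 89.9 and 90.2 CPM in MAC-1low and 79.3, 60.7 and 74.8 CPM in MAC-1+ HSCs. Unlike the cyclins, it had the higher SS mean in MAC-1- HSCs, which rested on MAC-1- replicate 3 alone. Without that sample its SS log2 fold change of MAC-1low against MAC-1- was 0.68, the direction of the cyclins. At 4 weeks the MAC-1+ samples of Cdk1 lay below all others. Against 4 week MAC-1- HSCs, the MAC-1+ log2 fold changes were -1.79 ± 0.69 (SE) for Ccnb1, -1.61 ± 0.47 (SE) for Ccnb2 and -1.48 ± 0.47 (SE) for Cdk1, with adjusted p of 0.266, 0.106 and 0.15 by edgeR. The CDC25 phosphatases remove the inhibitory marks from CDK1. Cdc25b averaged 2.88 ± 2.42 CPM (SD) in MAC-1- and 12.2 ± 9.78 in MAC-1low HSCs of SS, and 20.9 ± 5.37 in MAC-1-, 6.58 ± 4.69 in MAC-1low and 0.655 ± 0.705 CPM in MAC-1+ HSCs at 4 weeks. Its 3 samples of 4 week MAC-1- lay above every sample of 4 week MAC-1low and MAC-1+. Cdc25c averaged 15.7 ± 27.1 CPM (SD) in MAC-1- and 4.65 ± 7.65 in MAC-1low HSCs of SS, and 13.4 ± 8.03 in MAC-1-, 10.1 ± 10.7 in MAC-1low and 11.2 ± 12.6 CPM in MAC-1+ HSCs at 4 weeks, with SDs above the means in 4 of the 5 populations.

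**Figure D3:**
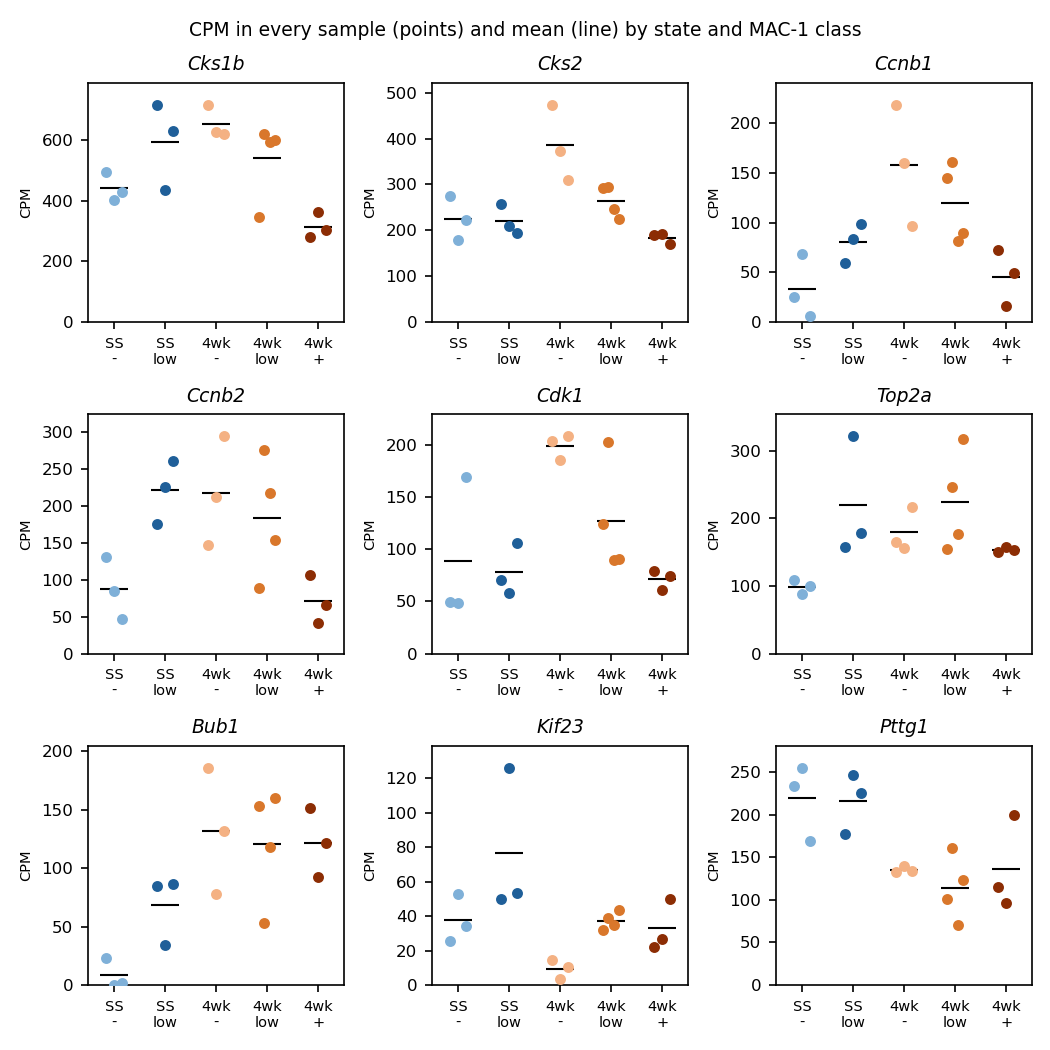
CPM (vertical axes, from 0) of 9 of the genes in every sample (points) of the 5 populations (horizontal axes, SS or 4wk with MAC-1 class), with the mean as a line. Cks1b and Cks2 are lowest in 4 week MAC-1+ HSCs, Bub1 is lowest in SS MAC-1- HSCs, and Kif23 is lowest in 4 week MAC-1- HSCs.

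The mitotic kinases and the chromosomal passenger complex were less uniform. Aurka encodes aurora A, the kinase of the spindle poles. For Aurka, the SS samples held 15.99, 14.05 and 0 CPM in MAC-1- and 16.2, 38.8 and 12.9 CPM in MAC-1low HSCs. Aurka at 4 weeks reached 40.9, 24.9 and 21.9 CPM in MAC-1-, 31.6, 34.6, 18.6 and 6.895 CPM in MAC-1low and 6.65, 1.07 and 24.05 CPM in MAC-1+ HSCs. Neighbouring MAC-1 classes overlapped in both states, and the 4 week MAC-1- samples were above all SS MAC-1- samples. Aurkb encodes aurora B, the enzyme of the passenger complex, which corrects the attachment of chromosomes. For Aurkb, the SS samples held 4.25, 12.4 and 46.1 CPM in MAC-1- and 49.1, 56.8 and 60.6 CPM in MAC-1low HSCs. Aurkb at 4 weeks reached 16.4, 16.3 and 60.02 CPM in MAC-1-, 26.1, 27.1, 52.7 and 30.9 CPM in MAC-1low and 10.02, 12.8 and 40.9 CPM in MAC-1+ HSCs. All SS MAC-1low samples were above the SS MAC-1- samples, and the 4 week classes overlapped. Plk1, polo-like kinase, acts from mitotic entry to cytokinesis. For Plk1, the SS samples held 10.3, 0.419 and 0 CPM in MAC-1- and 15.4, 19.6 and 7.48 CPM in MAC-1low HSCs. Plk1 at 4 weeks reached 15.4, 10.8 and 3.804 CPM in MAC-1-, 7.42, 8.77, 13.2 and 1.31 CPM in MAC-1low and 12.4, 30.5 and 10.6 CPM in MAC-1+ HSCs. Its highest sample was a 4 week MAC-1+ sample, in contrast to Cks1b and the cyclins, and the classes overlapped in both states. Birc5, survivin, is the small subunit of the passenger complex. For Birc5, the SS samples held 182, 35.1 and 124 CPM in MAC-1- and 106, 469 and 223 CPM in MAC-1low HSCs. Birc5 at 4 weeks reached 249, 347 and 252 CPM in MAC-1-, 176, 291, 252 and 282 CPM in MAC-1low and 196, 151 and 136 CPM in MAC-1+ HSCs. Its MAC-1+ samples were below the 4 week MAC-1- samples, and the MAC-1low samples overlapped both. Incenp encodes the scaffold of the same complex. For Incenp, the SS samples held 11.6, 10.8 and 30.6 CPM in MAC-1- and 33.03, 87.9 and 46.1 CPM in MAC-1low HSCs. Incenp at 4 weeks reached 26.3, 52.9 and 50.8 CPM in MAC-1-, 21.5, 14.3, 59.1 and 30.2 CPM in MAC-1low and 29.4, 54.6 and 20.1 CPM in MAC-1+ HSCs. Only in SS did its MAC-1- and MAC-1low samples not overlap. Cdca8, borealin, is the remaining subunit. For Cdca8, the SS samples held 6.23, 27.9 and 58.7 CPM in MAC-1- and 123, 177 and 87.9 CPM in MAC-1low HSCs. Cdca8 at 4 weeks reached 77.96, 61.9 and 77.1 CPM in MAC-1-, 32.2, 87.3, 41.1 and 21.998 CPM in MAC-1low and 22.4, 32.7 and 11.6 CPM in MAC-1+ HSCs. It was higher in all SS MAC-1low than in all SS MAC-1- samples, and 3 of the 4 MAC-1low samples at 4 weeks lay below the lowest MAC-1- sample. Ttk, the checkpoint kinase MPS1, averaged 21.2 ± 10.2 CPM (SD) in MAC-1- and 30.6 ± 20.9 in MAC-1low HSCs of SS, and 35.3 ± 15.8 in MAC-1-, 48.3 ± 10.2 in MAC-1low and 39.6 ± 29.7 CPM in MAC-1+ HSCs at 4 weeks. Tpx2, which activates aurora A on the spindle, averaged 41.1 ± 16.2 CPM (SD) in MAC-1- and 89.1 ± 22.1 in MAC-1low HSCs of SS, and 71.4 ± 24.2 in MAC-1-, 37.6 ± 17.2 in MAC-1low and 59.4 ± 42.6 CPM in MAC-1+ HSCs at 4 weeks.

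The spindle checkpoint delays anaphase until every chromosome is attached, and its end frees separase from securin. Bub1 is a kinase of that checkpoint. For Bub1, the SS samples held 22.7, 0.262 and 1.54 CPM in MAC-1- and 84.9, 34.5 and 86.2 CPM in MAC-1low HSCs. Bub1 at 4 weeks reached 186, 77.8 and 132 CPM in MAC-1-, 153, 52.7, 118 and 160.1 CPM in MAC-1low and 151, 92.3 and 121 CPM in MAC-1+ HSCs. The SS MAC-1- samples lay below all other samples of the study, and the 4 week classes overlapped, MAC-1+ HSCs included. Bub1b encodes BUBR1, part of the inhibitor of the anaphase-promoting complex. For Bub1b, the SS samples held 20.1, 0.367 and 3.38 CPM in MAC-1- and 10.9, 25.003 and 43.9 CPM in MAC-1low HSCs. Bub1b at 4 weeks reached 33.1, 36.2 and 38.3 CPM in MAC-1-, 22.9, 49.3, 34.1 and 23.1 CPM in MAC-1low and 35.7, 38.5 and 8.03 CPM in MAC-1+ HSCs. SS MAC-1- was again the lowest population by its mean, and it overlapped SS MAC-1low. Cdc20 activates the anaphase-promoting complex. For Cdc20, the SS samples held 39.9, 36.7 and 5.64 CPM in MAC-1- and 32.98, 34.1 and 76.3 CPM in MAC-1low HSCs. Cdc20 at 4 weeks reached 11.2, 27.8 and 69.6 CPM in MAC-1-, 16.2, 24.1, 8.999 and 6.41 CPM in MAC-1low and 21.1, 12.6 and 21.8 CPM in MAC-1+ HSCs. The 4 week MAC-1low samples all lay below the SS MAC-1low samples, and no other pair of neighbouring populations was free of overlap. Espl1 encodes separase, the protease that opens cohesin rings. For Espl1, the SS samples held 0, 0 and 0.103 CPM in MAC-1- and 6.105, 0.168 and 17.4 CPM in MAC-1low HSCs. Espl1 at 4 weeks reached 3.201, 7.39 and 5.49 CPM in MAC-1-, 3.74, 0.0459, 2.83 and 0.0375 CPM in MAC-1low and 2.42, 2.701 and 4.51 CPM in MAC-1+ HSCs. In SS MAC-1- HSCs it was at or under the floor in every sample, and the SS MAC-1low value rests on 2 of 3 samples. Pttg1 encodes securin, which holds separase back, and was singled out after its values were seen. For Pttg1, the SS samples held 233, 255 and 169 CPM in MAC-1- and 177, 247 and 225 CPM in MAC-1low HSCs. Pttg1 at 4 weeks reached 133, 140.2 and 133 CPM in MAC-1-, 100.4, 161, 70.8 and 124 CPM in MAC-1low and 115, 96.2 and 199 CPM in MAC-1+ HSCs. In both classes its SS samples lay above its 4 week samples with no overlap, whereas 49 of the 52 genes were higher at 4 weeks in the MAC-1- class and 29 were lower in the MAC-1low class. The log2 fold change of 4 week against SS was -0.92 ± 0.30 (SE) in MAC-1low HSCs (adjusted p = 0.405 by edgeR and 0.0729 by DESeq2) and -0.69 ± 0.32 (SE) in MAC-1- HSCs (adjusted p = 0.47 by edgeR). Bub3, a checkpoint protein that also serves outside mitosis, averaged 216 ± 69.4 CPM (SD) in MAC-1- and 284 ± 31.9 in MAC-1low HSCs of SS, and 302 ± 43.5 in MAC-1-, 259 ± 63.4 in MAC-1low and 212 ± 12.3 CPM in MAC-1+ HSCs at 4 weeks. Ube2c, the ubiquitin-conjugating enzyme of the anaphase-promoting complex, averaged 78.2 ± 83.3 CPM (SD) in MAC-1- and 178 ± 77.9 in MAC-1low HSCs of SS, and 222 ± 34.01 in MAC-1-, 179 ± 62.6 in MAC-1low and 62.3 ± 43.6 CPM in MAC-1+ HSCs at 4 weeks.

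Centromere proteins and kinesins link chromosomes to the spindle and move them. Cenpf encodes a large protein of the outer kinetochore. For Cenpf, the SS samples held 16.7, 33.2 and 35.2 CPM in MAC-1- and 95.2, 124 and 51.9 CPM in MAC-1low HSCs. Cenpf at 4 weeks reached 81.8, 35.2 and 61.5 CPM in MAC-1-, 63.8, 61.95, 92.6 and 29.4 CPM in MAC-1low and 49.5, 30.7 and 30.9 CPM in MAC-1+ HSCs. The SS MAC-1low samples were above all SS MAC-1- samples, and the 4 week classes overlapped. Cenpa, the histone H3 variant of centromeres, averaged 93.1 ± 16.8 CPM (SD) in MAC-1- and 122 ± 74.6 in MAC-1low HSCs of SS, and 168 ± 29.9 in MAC-1-, 151 ± 54.9 in MAC-1low and 123 ± 42.9 CPM in MAC-1+ HSCs at 4 weeks. Cenpe, a kinesin of the kinetochore, averaged 39.7 ± 46.5 CPM (SD) in MAC-1- and 62.1 ± 29.5 in MAC-1low HSCs of SS, and 95 ± 36.6 in MAC-1-, 23.6 ± 12.6 in MAC-1low and 24.4 ± 21.5 CPM in MAC-1+ HSCs at 4 weeks. Its 4 week MAC-1low samples were all below the MAC-1- samples of that time. Kif20a encodes a kinesin of the central spindle. For Kif20a, the SS samples held 0, 0 and 0 CPM in MAC-1- and 11.1, 0 and 2.84 CPM in MAC-1low HSCs. Kif20a at 4 weeks reached 1.26, 7.09 and 0 CPM in MAC-1-, 0, 4.64, 2.78 and 0.0375 CPM in MAC-1low and 5.41, 0 and 7.79 CPM in MAC-1+ HSCs. It had 0 counts in all 3 SS MAC-1- samples and was also at 0 in samples of every other population. Against the floor of 3 counts per library, its mean was 26.3-fold higher in SS MAC-1low and 15.7-fold higher in 4 week MAC-1- HSCs. Both of these populations also held a sample at 0, so these folds are no lower bounds for the populations. Its exons share 1271 bases with Cdc23 on the opposite strand, and the library kit does not mark strand, so reads there cannot be assigned. Kif23 encodes the kinesin of centralspindlin, the complex that RACGAP1 completes, and was singled out after its values were seen. For Kif23, the SS samples held 25.5, 52.6 and 34.4 CPM in MAC-1- and 49.7, 126 and 53.5 CPM in MAC-1low HSCs. Kif23 at 4 weeks reached 14.5, 3.41 and 10.3 CPM in MAC-1-, 31.6, 38.7, 34.7 and 43.7 CPM in MAC-1low and 22.2, 26.6 and 49.8 CPM in MAC-1+ HSCs. The 4 week MAC-1- samples lay below all 13 other samples, the opposite of most of the list. The log2 fold change from MAC-1- was 1.98 ± 0.57 (SE) in 4 week MAC-1low and 1.80 ± 0.59 (SE) in 4 week MAC-1+ HSCs, with adjusted p of 0.331 and 0.168 by edgeR, and of 0.00386 and 0.00945 by DESeq2. Racgap1, its partner, averaged 15.8 ± 14.2 CPM (SD) in MAC-1- and 17.2 ± 13.7 in MAC-1low HSCs of SS, and 33.5 ± 26.5 in MAC-1-, 31.6 ± 10.1 in MAC-1low and 19.7 ± 15.5 CPM in MAC-1+ HSCs at 4 weeks. The other motor proteins were read by their means. Kif11, which pushes the spindle poles apart, averaged 21.5 ± 15.8 CPM (SD) in MAC-1- and 83.9 ± 83.6 in MAC-1low HSCs of SS, and 63.7 ± 12.9 in MAC-1-, 64.5 ± 30.4 in MAC-1low and 35.97 ± 9.79 CPM in MAC-1+ HSCs at 4 weeks. Kif20b averaged 58.2 ± 30.7 CPM (SD) in MAC-1- and 131 ± 51.7 in MAC-1low HSCs of SS, and 90.9 ± 37.9 in MAC-1-, 147 ± 28.5 in MAC-1low and 88.01 ± 64.2 CPM in MAC-1+ HSCs at 4 weeks. Kif2c, which takes microtubules apart, averaged 8.05 ± 8.99 CPM (SD) in MAC-1- and 7.17 ± 6.83 in MAC-1low HSCs of SS, and 16.6 ± 6.84 in MAC-1-, 6.93 ± 3.51 in MAC-1low and 11.5 ± 10.5 CPM in MAC-1+ HSCs at 4 weeks.

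Spindle proteins other than motors bundle, anchor or focus the microtubules. Dlgap5 encodes a protein that steadies kinetochore fibres. For Dlgap5, the SS samples held 0, 0.314 and 0.359 CPM in MAC-1- and 0.209, 42.8 and 8.51 CPM in MAC-1low HSCs. Dlgap5 at 4 weeks reached 17.2, 11.3 and 15.8 CPM in MAC-1-, 1.41, 20.3, 22.9 and 31.6 CPM in MAC-1low and 0.0475, 0.126 and 2.93 CPM in MAC-1+ HSCs. It was close to 0 in SS MAC-1- and in 4 week MAC-1+ replicates 1 and 2, and SS MAC-1low ranged from near 0 to its highest value of all samples. Nusap1, a microtubule-bundling protein, averaged 101 ± 71.96 CPM (SD) in MAC-1- and 124 ± 42.4 in MAC-1low HSCs of SS, and 141 ± 28.1 in MAC-1-, 113 ± 53.2 in MAC-1low and 131 ± 44.2 CPM in MAC-1+ HSCs at 4 weeks. Hmmr, a spindle and hyaluronan-binding protein, averaged 33.2 ± 37.2 CPM (SD) in MAC-1- and 35.3 ± 12.7 in MAC-1low HSCs of SS, and 50.7 ± 11.9 in MAC-1-, 22.4 ± 15.6 in MAC-1low and 34.3 ± 27.4 CPM in MAC-1+ HSCs at 4 weeks. Ckap2 averaged 29.5 ± 20.7 CPM (SD) in MAC-1- and 46.6 ± 21.2 in MAC-1low HSCs of SS, and 73.4 ± 13.3 in MAC-1-, 34.7 ± 11.8 in MAC-1low and 29.6 ± 29.2 CPM in MAC-1+ HSCs at 4 weeks. The 4 week MAC-1- samples of Ckap2 lay above all 4 week MAC-1low samples. Ckap2l, a relative of Ckap2, averaged 27.8 ± 9.19 CPM (SD) in MAC-1- and 44.8 ± 17.9 in MAC-1low HSCs of SS, and 56.03 ± 25.2 in MAC-1-, 32.1 ± 15.9 in MAC-1low and 21.6 ± 12.99 CPM in MAC-1+ HSCs at 4 weeks. Ckap5, a microtubule polymerase, averaged 93.8 ± 75.3 CPM (SD) in MAC-1- and 120.5 ± 41.5 in MAC-1low HSCs of SS, and 108 ± 36.2 in MAC-1-, 114 ± 29.2 in MAC-1low and 89.03 ± 39.2 CPM in MAC-1+ HSCs at 4 weeks. Gtse1 averaged 1.31 ± 2.22 CPM (SD) in MAC-1- and 10.9 ± 12.3 in MAC-1low HSCs of SS, and 8.59 ± 10.9 in MAC-1-, 5.69 ± 6.05 in MAC-1low and 0.3598 ± 0.313 CPM in MAC-1+ HSCs at 4 weeks. Tacc3, which ties spindle fibres together, averaged 23.7 ± 11.7 CPM (SD) in MAC-1- and 36.6 ± 16.4 in MAC-1low HSCs of SS, and 36.5 ± 9.19 in MAC-1-, 22.4 ± 2.16 in MAC-1low and 13.7 ± 4.55 CPM in MAC-1+ HSCs at 4 weeks. Aspm, a protein of the spindle poles, averaged 16.97 ± 14.8 CPM (SD) in MAC-1- and 33.8 ± 35.5 in MAC-1low HSCs of SS, and 47.2 ± 27.6 in MAC-1-, 48.8 ± 27.8 in MAC-1low and 16.7 ± 1.58 CPM in MAC-1+ HSCs at 4 weeks.

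Cytokinesis genes act at the midzone and the cleavage furrow. Prc1, which bundles midzone microtubules, averaged 16.01 ± 7.699 CPM (SD) in MAC-1- and 71.95 ± 51.3 in MAC-1low HSCs of SS, and 33.1 ± 15.3 in MAC-1-, 65.3 ± 22.5 in MAC-1low and 35.7 ± 20.96 CPM in MAC-1+ HSCs at 4 weeks. Its SS MAC-1low samples were above all SS MAC-1- samples. Anln, the furrow scaffold anillin, averaged 12.4 ± 0.917 CPM (SD) in MAC-1- and 26.1 ± 3.54 in MAC-1low HSCs of SS, and 23.5 ± 6.67 in MAC-1-, 31.9 ± 8.89 in MAC-1low and 44.96 ± 34.2 CPM in MAC-1+ HSCs at 4 weeks. Ect2, which activates RhoA at the furrow, averaged 25.6 ± 9.36 CPM (SD) in MAC-1- and 41.96 ± 43.8 in MAC-1low HSCs of SS, and 45.8 ± 16.2 in MAC-1-, 46.9 ± 16.6 in MAC-1low and 82.6 ± 43.4 CPM in MAC-1+ HSCs at 4 weeks. Both Anln and Ect2 had their highest means in 4 week MAC-1+ HSCs. Those samples ran from 5.58 to 67.8 CPM for Anln and from 53.7 to 132 CPM for Ect2. For Anln they held both the highest and the lowest sample of the study.

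Chromosome structure genes had the highest median CPM of the roles in each population, from 115 in SS MAC-1- to 247 in 4 week MAC-1- samples. Top2a encodes topoisomerase II alpha, which untangles sister chromatids. For Top2a, the SS samples held 109, 87.5 and 99.2 CPM in MAC-1- and 158, 321 and 178 CPM in MAC-1low HSCs. Top2a at 4 weeks reached 166, 156 and 216 CPM in MAC-1-, 154, 247, 177 and 318 CPM in MAC-1low and 149.8, 158 and 152 CPM in MAC-1+ HSCs. All SS MAC-1- samples lay below every other sample of the study. Mki67 encodes Ki-67, the coat of mitotic chromosomes and the usual stain for cells in cycle. For Mki67, the SS samples held 98.1, 112 and 135 CPM in MAC-1- and 165, 385 and 155 CPM in MAC-1low HSCs. Mki67 at 4 weeks reached 346, 251 and 145 CPM in MAC-1-, 299, 189.8, 232 and 249 CPM in MAC-1low and 268, 134 and 102 CPM in MAC-1+ HSCs. SS MAC-1- was below SS MAC-1low without overlap, and the 4 week classes overlapped. Smc2 and Smc4 encode the core of condensin. Smc2 averaged 192 ± 58.1 CPM (SD) in MAC-1- and 261 ± 116 in MAC-1low HSCs of SS, and 253 ± 45.7 in MAC-1-, 403 ± 126 in MAC-1low and 245 ± 26.3 CPM in MAC-1+ HSCs at 4 weeks. Smc4 averaged 323 ± 64.2 CPM (SD) in MAC-1- and 359.5 ± 113 in MAC-1low HSCs of SS, and 512 ± 116 in MAC-1-, 533 ± 167 in MAC-1low and 556 ± 73.9 CPM in MAC-1+ HSCs at 4 weeks. Ncapd2, a condensin subunit, averaged 14.2 ± 10.5 CPM (SD) in MAC-1- and 18.4 ± 12.7 in MAC-1low HSCs of SS, and 14.6 ± 7.94 in MAC-1-, 19.9 ± 12.6 in MAC-1low and 9.14 ± 4.58 CPM in MAC-1+ HSCs at 4 weeks. Hmgb2, a DNA-bending protein and the most abundant of the 52 by CPM, averaged 667 ± 146 CPM (SD) in MAC-1- and 768 ± 237 in MAC-1low HSCs of SS, and 924 ± 119.5 in MAC-1-, 881 ± 108 in MAC-1low and 658 ± 125 CPM in MAC-1+ HSCs at 4 weeks. Lmnb1, lamin B1 of the nuclear envelope, averaged 2.72 ± 2.61 CPM (SD) in MAC-1- and 7.07 ± 3.16 in MAC-1low HSCs of SS, and 7.905 ± 2.31 in MAC-1-, 7.20001 ± 5.59 in MAC-1low and 8.503 ± 10.3 CPM in MAC-1+ HSCs at 4 weeks. Cdca3, which promotes the removal of the kinase WEE1, averaged 27.5 ± 16.9 CPM (SD) in MAC-1- and 65.8 ± 8.69 in MAC-1low HSCs of SS, and 56.3 ± 30.5 in MAC-1-, 62.8 ± 12.2 in MAC-1low and 27.2 ± 13.6 CPM in MAC-1+ HSCs at 4 weeks.

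The difference between MAC-1low and MAC-1- HSCs was then set side by side in both states, which share no samples. The 52 genes were chosen with earlier results of these data known. Here and below, their shares beside all tested genes therefore describe the list and are no independent test. In SS, 47 of the 52 genes were higher in MAC-1low HSCs, and their median difference was 1.05 on the log2 scale, where 49.7% of all tested genes were higher and the median was 0.0. At 4 weeks, 35 of 52 were lower in MAC-1low HSCs, with a median of -0.24, where 47.6% of all tested genes were lower and the median was 0.05. By edgeR 0 of 52 genes passed the adjusted threshold of 0.1 in SS and 0 at 4 weeks, beside 0.0146% and 0.278% of all tested genes. At an unadjusted p under 0.05, 13 of the 52 were higher and 0 lower in SS, against 5.09% and 4.26% of all tested genes. At 4 weeks 1 was higher, Kif23, and 1 lower, Cks2, against 4.08% and 3.18%. DESeq2 called 9 of the 52 in SS, all higher, beside 6.78% of the genes it tested, and 1 at 4 weeks, Kif23, beside 4.03%. By limma-voom 0 were called in both, beside 0.0% in SS and 2.26% at 4 weeks. In SS the samples of 14 genes did not overlap, all higher in MAC-1low HSCs, beside 5.95% of all tested genes higher and 5.38% lower. They were Ccnb2, Aurkb, Incenp, Cdca8, Tpx2, Bub1, Espl1, Cenpf, Kif20b, Prc1, Anln, Top2a, Mki67 and Cdca3. Espl1 is among them only by 3 counts against 2, at the floor, which is within counting error. At 4 weeks 6 genes did not overlap in the lower direction, Cdc25b, Cks2, Cenpe, Hmmr, Ckap2 and Tacc3, and 1 in the higher, Kif23, beside 5.53% and 5.23%.

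SS MAC-1low replicate 2 weighed on the SS difference. It was the highest of the 6 SS samples in 27 of the 52 genes, and SS MAC-1low replicate 3 was the highest in 13. Without replicate 2, the SS median was 0.69 and 10 genes had an unadjusted p under 0.05. Without SS MAC-1- replicate 3, the sample with the most genes detected, the median was 0.97 and 13 genes had such a p. Bub1 passed the test in SS without SS MAC-1- replicate 1, with an adjusted p of 0.0177 by edgeR.

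The direction in each state sorted the genes into groups, which describe a list chosen with earlier results of these data known. Of the 52, 30 were higher in SS and lower at 4 weeks in MAC-1low HSCs, or 57.7%, beside 22.9% of all tested genes. Another 17 were higher in both states, 5 were lower in both, and 0 were lower in SS and higher at 4 weeks. The 30 with opposite signs held Ccnb1, Ccnb2, Ccna2, Cdc25b, Cks1b, Aurka, Plk1, Birc5, Incenp, Cdca8, Tpx2, Bub1, Bub1b, Bub3, Cdc20, Ube2c and Espl1 among the regulators. The rest of them were Cenpa, Cenpe, Kif20a, Nusap1, Hmmr, Ckap2, Ckap2l, Gtse1, Tacc3, Racgap1, Mki67, Hmgb2 and Lmnb1. The 17 higher in both states held the cytokinesis genes Prc1, Anln and Ect2, the condensin genes Smc2, Smc4 and Ncapd2, Top2a, the kinesins Kif11, Kif20b and Kif23, and Aurkb, Ttk, Cenpf, Ckap5, Dlgap5, Aspm and Cdca3. Cdk1, Cdc25c, Cks2, Pttg1 and Kif2c were lower in both. Many of the 4 week differences were near 0, and the sign of Mki67, at -0.03 ± 0.39 (SE), turned under 14 of the other settings, 8 of which left out 1 sample.

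The test of whether the step differs between the states is the interaction, the 4 week difference minus the SS difference. It was negative for 48 of the 52 genes, with a median of -1.26, beside 49.0% of all tested genes and a median of 0.03. The choice of the list with earlier results known limits this comparison too. Of the 52, 0 passed the adjusted threshold by edgeR, beside 0.0586% of all tested genes, and the smallest adjusted p was 0.432. By DESeq2 3 genes passed, Dlgap5, Espl1 and Cdca8, beside 5.28% of the genes it tested, and by limma-voom 0, beside 0.117%. At an unadjusted p under 0.05, 10 of the 52 were negative and 0 positive, beside 3.95% and 4.78% of all tested genes. Of these 10, 8 had opposite signs in the 2 states, Ccnb2, Cks1b, Incenp, Cdca8, Tpx2, Bub1, Espl1 and Kif20a, beside 3.24% of all tested genes, while Dlgap5 and Cenpf were higher in both and less so at 4 weeks. For 3 of the 8 the 4 week sign turned when 1 sample was left out, to 0.03 for Ccnb2 without 4 week MAC-1- replicate 3, to 0.21 and 0.15 for Bub1 without 4 week MAC-1- replicate 1 or MAC-1low replicate 2, and to 1.56 for Kif20a without 4 week MAC-1- replicate 2. Tpx2 was not examined in this way. For Cdca8 the log2 fold change was 2.06 ± 0.69 (SE) in SS and -0.66 ± 0.62 (SE) at 4 weeks, an interaction of -2.73 ± 0.92 (SE). For Ccnb2 these were 1.34 ± 0.46 (SE), -0.25 ± 0.42 (SE) and -1.59 ± 0.62 (SE). For Cks1b they were 0.43 ± 0.23 (SE), -0.28 ± 0.21 (SE) and -0.71 ± 0.31 (SE). For these 3 genes the 4 week difference was smaller in size than the SS difference. With no overlap in both states and opposite directions, 0 of the 52 genes were found, beside 0.249% of all tested genes. Without SS MAC-1low replicate 2, 27 genes had opposite signs, 6 had an unadjusted interaction p under 0.05, and the median interaction was -0.90. Bub1 had an adjusted interaction p of 0.0308 without SS MAC-1- replicate 1.

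**Figure D4:**
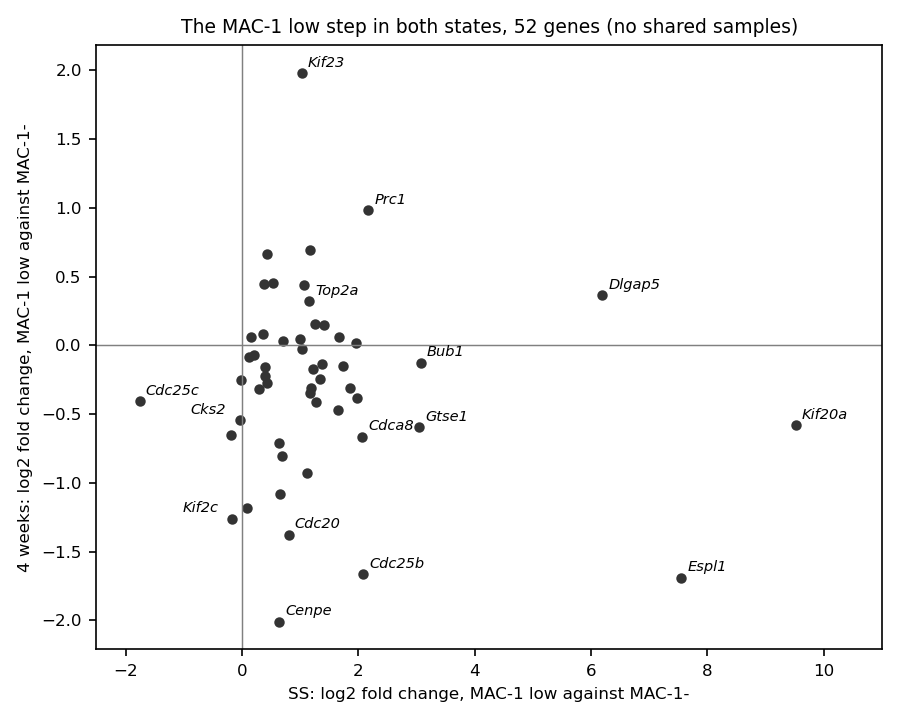
Log2 fold change of MAC-1low against MAC-1- HSCs in SS (horizontal axis) and at 4 weeks (vertical axis). Points are the 52 genes. Of them, 30 lie right of 0 and below 0, 17 right of 0 and above 0, and 5 left of 0 and below 0.

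**Figure D5:**
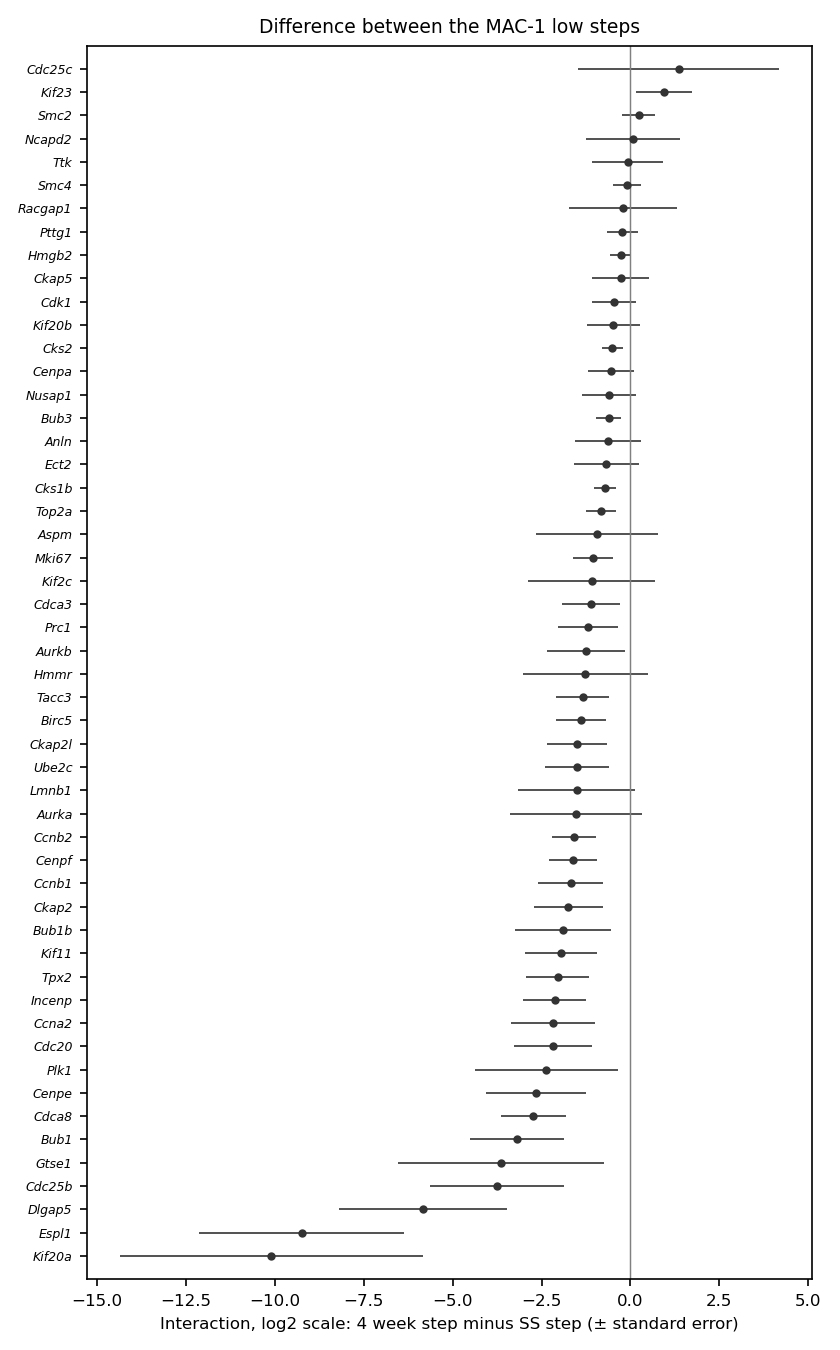
Interaction of each of the 52 genes on the log2 scale (horizontal axis, 4 week difference minus SS difference), sorted, with its standard error as the bar. For 48 genes the point lies left of 0, and the widest bar is that of Kif20a, a gene with 7 samples at 0.

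SS and 4 week samples were then compared within each class, first in MAC-1- HSCs, whose 4 week samples are those with the high megakaryocyte and low HSC marker sums. Here 49 of the 52 genes were higher at 4 weeks than in SS, by a median of 1.04 on the log2 scale, beside 48.1% of all tested genes. This comparison uses the same SS MAC-1- samples as the SS difference above and the same 4 week MAC-1- samples as the other 4 week differences. By edgeR 0 of 52 passed the test, beside 0.432% of all tested genes, and by limma-voom 0, beside 0.608%. DESeq2 called 6, of which 5 were higher and 1, Kif23, lower, beside 7.81% of the genes it tested. Of the 52, 15 were higher and 2 lower, Kif23 and Pttg1, at an unadjusted p under 0.05, against 5.59% and 4.86% of all tested genes. The samples of 25 genes did not overlap in the higher direction and of 2 in the lower, beside 9.24% and 7.4%. Bub1 had the smallest adjusted p of the 52, 0.206 by edgeR, at a difference of 4.02 ± 1.07 (SE), while Kif20a, Espl1 and Dlgap5, which have samples at 0, had larger fitted differences. Within the MAC-1low class, 23 genes were higher and 29 lower at 4 weeks, beside 49.0% and 50.9% of all tested genes, with a median of -0.07, and 0 passed the test by edgeR, beside 0.0439%. At an unadjusted p under 0.05, 0 were higher and 3 lower, Cdca8, Cdc20 and Pttg1, beside 5.37% and 3.51%, while DESeq2 called 1, Pttg1, beside 4.6% of the genes it tested, and limma-voom 0, beside 0.176%. The samples of 6 genes, Cdca8, Tpx2, Cdc20, Pttg1, Kif23 and Tacc3, were lower without overlap and 0 higher, beside 4.98% and 5.44%. Without SS MAC-1low replicate 2 that median was 0.19.

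At the upper end of MAC-1, 42 of the 52 genes were lower in the MAC-1+ class than in the MAC-1- class at 4 weeks, by a median log2 fold change of -0.56, beside 47.3% of all tested genes. Cks1b and Cks2 were the 2 called genes, 11 genes were lower and 1 higher, Kif23, at an unadjusted p under 0.05, beside 7.06% and 6.3%. The samples of 19 genes did not overlap in the lower direction and of 1, Kif23, in the higher, beside 11.5% and 10.2%. Those without overlap on the lower side were Ccnb1, Ccnb2, Ccna2, Cdk1, Cdc25b, Cks1b, Cks2, Birc5, Cdca8, Bub3, Ube2c, Cenpe, Kif11, Ckap2, Ckap2l, Dlgap5, Gtse1, Tacc3 and Hmgb2. DESeq2 called 7, of which 6 were lower and 1, Kif23, higher, beside 11.6% of the genes it tested. By limma-voom 6 were called, all lower, beside 6.34%, and Cks1b, Cks2, Cdk1, Cdc25b and Ccnb2 were lower in both. Without SS MAC-1- replicate 3, edgeR called 5. Against 4 week MAC-1low HSCs, 35 genes were lower in MAC-1+ HSCs, with a median of -0.53, and 0 passed the test by edgeR, beside 0.0% of all tested genes. At an unadjusted p under 0.05, 0 were higher and 7 lower, beside 2.24% and 4.61%, while DESeq2 called 3, beside 3.17% of the genes it tested, and limma-voom 0, beside 0.00732%. The samples of 8 genes did not overlap in the lower direction and of 0 in the higher, beside 4.48% and 3.75%, namely Ccnb1, Cdk1, Cdc25b, Cks2, Ube2c, Tacc3, Aspm and Cdca3.

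Other genes of the cycle were set beside the 52. Of 64 other G2 and mitosis genes, such as the transcription factors Foxm1 and Mybl2 and the subunits of the anaphase-promoting complex, 0 passed the test by edgeR in any of the 7 contrasts, and at an unadjusted p under 0.05 in SS 8 were higher and 2 lower in MAC-1low HSCs. Their median was 0.65 for the SS difference and -0.06 for the 4 week difference, and 25 had opposite signs, or 39.1%. Of 30 S phase genes, 20 had opposite signs, or 66.7%, with medians of 0.48 and -0.54. Between the MAC-1+ and MAC-1- classes at 4 weeks, 3 S phase genes were called, all lower. Tyms, which makes thymidylate for DNA synthesis, changed by -1.90, Tipin, a protein of the replication fork, by -1.71 and Mcm3, a subunit of the replicative helicase, by -1.36 on the log2 scale, with adjusted p of 0.0186, 0.00397 and 0.0939 by edgeR. Tipin was also higher in 4 week than in SS MAC-1- HSCs, by 1.22 with an adjusted p of 0.0939.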

How the data were processed

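RNA of MAC-1-sorted mouse HSCs was measured by SMART-Seq in 16 samples, grouped by label. The authors deposited raw read counts per gene in 1 table, from STAR alignment within nf-core. The genome build, annotation and counting program were not given in the sources used here, and the processing notes of the submitters name DESeq2. Without molecular identifiers, PCR copies count as reads, and a long transcript yields more reads than a short one.

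Tests ran in edgeR 4.0.16 (R 4.3.3), with TMM factors, the default filter on low counts (13661 of 46078 genes kept) and a robust quasi-likelihood test in 1 model with a mean per population, all 16 samples and no covariate. Each comparison was a contrast, p-values were adjusted by Benjamini-Hochberg over all tested genes, and a gene was called at an adjusted p under 0.1. The common biological coefficient of variation was 1.13. DESeq2 1.42.0, limma-voom (limma 3.58.1), other scaling and filters, separate fits, a replicate block and leaving out each sample were alternatives. Of these and the main test, only edgeR with its main settings, DESeq2 and limma-voom were run on simulated data. That run covered the 4 week MAC-1low against MAC-1- comparison alone. Each SE is the size of the edgeR log2 fold change divided by the square root of the F statistic of its test. Fitted log2 fold changes of genes with samples at 0, and with them these SEs, depend on the prior count.

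The 52 genes and all other lists were chosen with earlier results of these data known. Values in every sample are given for called genes, for Ccnb1, Ccnb2, Ccna2, Cdk1, Plk1, Aurka, Aurkb, Bub1b, Cdc20, Birc5, Top2a and Mki67, and for the 8 genes with the smallest interaction p. Exon lengths and overlaps came from GENCODE M21 and promoters from RefSeq (GRCm38.p6). Exons shared with a gene on the opposite strand also touch Ccna2, Cdc20, Cdc25b, Cdc25c, Cdca8, Ckap2l, Nusap1, Plk1, Prc1, Tacc3 and Ube2c, and near-identical pseudogenes match Ccnb1, Hmgb2, Mki67 and Racgap1, so these counts are uncertain to that extent.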

Additional observations from a re-analysis of the deposited data

Results flagged for a closer look

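Of the 52 genes, 3 had a 4 week MAC-1low sample whose gap to the nearest of the other 3 samples passed Dixon's 95% critical value, and chance gives about 1 such group in 20. Cks1b was at 346 CPM in 4 week MAC-1low replicate 1, where the other samples of that population held 594 to 620.1 CPM. Aspm was at 90.04 CPM in the same sample, above 29.6 to 39.4 CPM in the others. Kif11 was at 19.3 CPM in 4 week MAC-1low replicate 3, below 75.3 to 85.02 CPM in the others. The groups of 3 samples were not tested in this way.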

How the results depend on the processing

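Of the summary values, 326 kept their direction and their side of the threshold or moved by less than the allowed spread, and 19 moved, all counts of called genes or medians. DESeq2 called 1 of the 52 genes in the 4 week MAC-1low against MAC-1- comparison, 9 in the SS one, 3 in the interaction, 7 for MAC-1+ against MAC-1- and 3 for MAC-1+ against MAC-1low at 4 weeks, 6 for 4 week against SS MAC-1- HSCs and 1 for 4 week against SS MAC-1low HSCs. limma-voom called 6 for MAC-1+ against MAC-1-. The cause of these differences was not tested. Leaving out 1 sample at a time, edgeR called 0 to 5 genes for MAC-1+ against MAC-1- (0 when 4 week MAC-1- replicate 1 was dropped, 1 when MAC-1+ replicate 3 was dropped and 5 when SS MAC-1- replicate 3 was), and 0 to 1 for the SS difference, the interaction and 4 week against SS MAC-1- HSCs, the 1 arising without SS MAC-1- replicate 1 and, in the last, also without replicate 3. The median over the 52 genes ranged from 0.69 to 1.24 for the SS difference, from -1.47 to -0.90 for the interaction and from -0.32 to 0.19 for 4 week against SS MAC-1low HSCs, with the ends set by SS MAC-1low replicates 1 and 2.

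Differences close to 0 changed sign. For MAC-1low against MAC-1- at 4 weeks, Mki67 turned to 0.0175 with DESeq2, 0.0271 with limma-voom, 0.0166 with DESeq2 size factors, 0.0181 without a filter, 0.00173 with the compared groups alone and 0.0232 with the replicate block. Dlgap5 turned to -0.064 with limma-voom, and in SS Cdk1 turned to 0.24 with limma-voom. Leaving out 1 sample gave ranges across 0 at 4 weeks for Ccnb2 (-0.49 to 0.032), Plk1 (-0.77 to 0.076), Aurkb (-0.16 to 1.07), Birc5 (-0.26 to 0.0018), Mki67 (-0.30 to 0.29), Bub1 (-0.39 to 0.21), Cenpf (-0.21 to 0.36) and Kif20a (-1.53 to 1.56), and in SS for Cks2 (-0.17 to 0.13) and Cdk1 (-0.49 to 0.68). These ranges cover only the genes that the processing section lists for values in every sample. Other genes with 4 week differences near 0, such as Kif11 (0.02) and Ect2 (0.03), were not examined in this way.

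Deviations of same-numbered samples correlated at -0.0011 to 0.040 and those of other pairs at -0.026 to 0.023. All were close to 0, but nearly all of the first lay above 0. Deviations were taken from the population mean and sum to 0. Values of the second kind therefore tend below 0 when the first lie above it, and are no separate observation. Whether samples were paired cannot be told from these values. Sets other than those numbers were not tested. With the replicate number as a block, edgeR still called 2 genes for MAC-1+ against MAC-1- and 0 elsewhere, and Plk1 turned to 0.54, Bub1b to 0.0098 and Dlgap5 to -1.92 in the 4 week MAC-1low difference. With 3 or 4 samples a population and few cells in each, single samples at 0 limit genes such as Kif20a, Espl1, Dlgap5 and Gtse1.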
